A study of Mus musculus with 6 samples.

Results

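Macrophages sorted from mouse pancreas 5 days after the first caerulein injection were compared with macrophages from mock pancreas. The comparison uses 2 of the 6 RNA-seq libraries of the study, 1 library a side. All 6 libraries came from wild type Balb/c mice, each from a pool of more than 3 animals, and the other 4 were taken on days 1, 3, 4 and 7 after caerulein. Mice in the caerulein groups received 10 hourly injections of caerulein, a peptide that acts on the cholecystokinin receptor of acinar cells and causes acute pancreatitis. The design text gives mock mice saline on the same schedule, while the sample label of mock lists no treatment. Leukocytes were enriched with beads against CD45.2, sorted by flow cytometry as CD45+CD11b+F4/80+ cells, and lysed for RNA. The sources used here do not give age, sex or the number of cells sorted. Genes were ranked by their mean over the 6 libraries, and the 10000 highest of 31617 genes, here called expressed genes, were compared. For each, the ratio of day 5 to mock was taken on the log2 scale after a pseudocount of 17.8 normalised reads had been added to both values, so that ratios of low genes are understated. A gene was counted as higher or lower at a ratio of at least 2-fold. With 1 pooled library a side there is no replicate check and no test, and every difference below is between these libraries. Where a 95% counting interval is given, it is the Clopper-Pearson interval of the log2 ratio of reads without the pseudocount, and it covers counting error only.

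Macrophages take up dying cells and digest them in lysosomes, and the cholesterol and fatty acids so released are oxidised, stored or exported through transporters under the liver X receptors. In the pancreas resident macrophages lie among acini, ducts and islets, and injury brings in blood monocytes that carry Ly6C and can turn into macrophages. Type I interferon, sensed through its receptor and the factors STAT2 and IRF9, switches on a set of antiviral genes in most cells, macrophages among them. In caerulein pancreatitis acinar cells are damaged early and the gland then largely repairs itself.

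Of the 10000 genes, 368 (3.68%) were higher on day 5 by 2-fold or more and 640 (6.40%) were lower, 1008 (10.1%) in all. The median log2 ratio of all 10000 genes was 0.12, with 6035 genes above 0 and 3965 below. Large differences lay mostly on the lower side, where 226 genes were at least 4-fold and 42 at least 16-fold lower. On the higher side 25 genes reached 4-fold and 4 reached 8-fold. The split depended on scaling: 36.5% of the genes past 2-fold were higher as deposited, against 24.3% with equal library totals, 26.1% after centring on the median gene and 18.8% with equal totals after acinar, Reg, erythroid and mitochondrial genes had been left out. Under the last of these the median of all genes lay at -0.11. A gene just past 2-fold upward in the deposited values was not past it there, and 786 genes were lower in place of 640. The share that was higher was 48.1% among the 6000 highest genes. Of 302 genes named by rule that were past 2-fold, 67 fell short of it under some setting and 0 changed sign.

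**Figure D1:**
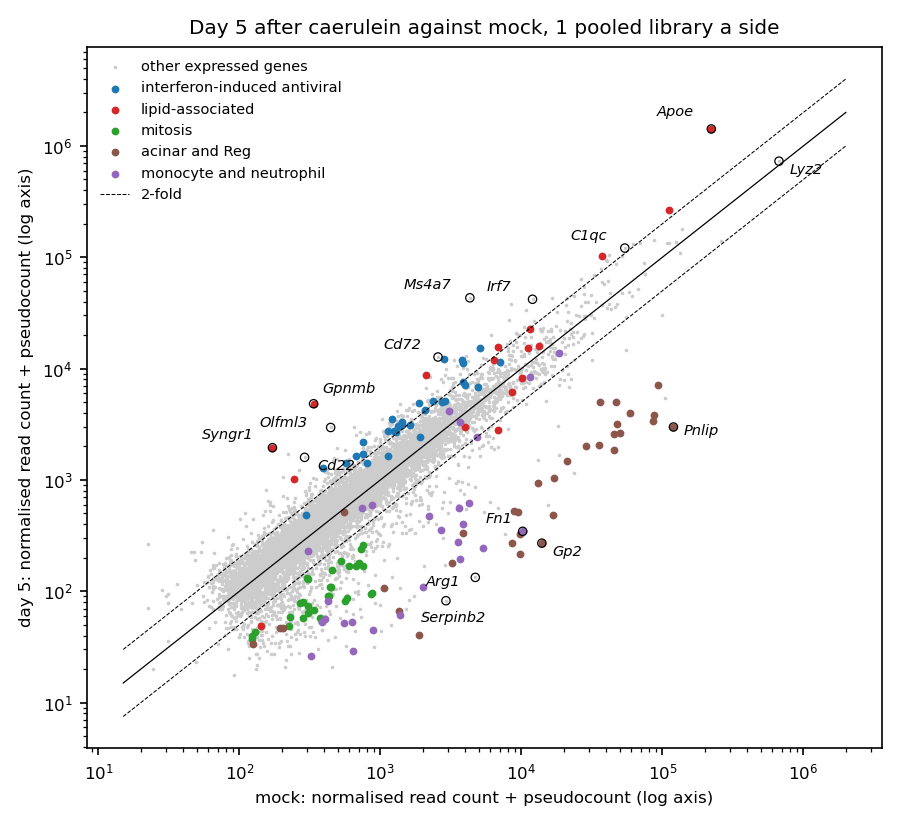
Normalised read counts plus the pseudocount in mock (horizontal, log axis) and on day 5 (vertical, log axis) for the 10000 expressed genes. Each point is a gene, the solid line marks equal values and the dashed lines 2-fold. Apoe, Gpnmb and Ms4a7 lie far above the upper dashed line, and 25 of 26 acinar genes and all 6 Reg genes lie below the lower one.

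The genes of the sort were present in both libraries. Ptprc, which encodes CD45, had normalised read counts of 11870.5 in mock, 12626, 7282 and 9425 on days 1, 3 and 4, 11351 on day 5 and 11553 on day 7. The F4/80 gene Adgre1 had 11750.1 in mock, 10592, 12632 and 11541 on days 1, 3 and 4, 23702 on day 5 and 9671 on day 7. Itgam, which encodes the integrin CD11b, had 1900.4 in mock, 2627, 1409 and 678 on days 1, 3 and 4, 687 on day 5 and 1097 on day 7. Between mock and day 5 Ptprc was level (log2 ratio -0.06), Adgre1 was higher (1.01, short of 2-fold under some scalings) and at its highest of the 6 libraries, and Itgam was lower (-1.44). Of 17 core macrophage genes 5 were higher and 0 lower by 2-fold or more, with a median log2 ratio of 0.92. Those higher were the pore-forming Mpeg1 (1.74), the phagocytic receptor tyrosine kinase Mertk (1.27), the protease cathepsin S (Ctss, 1.24), the fractalkine receptor Cx3cr1 (1.23) and the high-affinity IgG receptor Fcgr1 (1.13). The number higher ranged from 2 to 7 over the 5 other scalings. In bulk RNA a change in the number of cells of a type and a change in RNA per cell cannot be told apart, and this holds for every gene group here.

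Markers of other cells differed between the libraries. The sums here cover all listed genes found in the data, expressed or not. The 28 acinar genes summed to 861029.9 normalised reads in mock and 46659 on day 5, a ratio of 18.5. Of these, 26 were expressed, and 25 of the 26 were past 2-fold. Over the 6 libraries the acinar sum was high in mock and on day 7 (1030852) and lowest on day 5. The 13 B cell genes summed to 8704 in mock and 3438 on day 5, and the 16 T cell genes to 5401 and 2679. The 17 neutrophil genes summed to 21841 and 8809.5, and 11 genes of peritoneal macrophages to 15338 and 3990.3. All of these sums were lower on day 5 than in mock, and their part in the results on other lower groups was not tested. Leaving the members of all other-cell lists out of the count, an alternative added after the data were seen, gave 362 genes higher and 556 lower.

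Gpnmb, Syngr1 and Apoe were among the 15 genes with the highest ratios. Gpnmb, which encodes a transmembrane glycoprotein of lysosome-rich macrophages, had 318 in mock, 4614, 4159 and 8911 on days 1, 3 and 4, 4817 on day 5 and 483 on day 7. Its level was 14.4-fold that of mock (log2 ratio 3.85, 95% counting interval 3.76 to 4.09). Day 4 was higher still, and day 7 was close to mock. Syngr1, the vesicle membrane protein synaptogyrin 1, was also highest on day 4, with 154 in mock, 2179, 2699 and 4231 on days 1, 3 and 4, 1929 on day 5 and 395 on day 7 (log2 ratio 3.50). Apoe, the apolipoprotein that carries exported cholesterol, had 222184 in mock, 168971, 561567 and 1508859 on days 1, 3 and 4, 1420534 on day 5 and 577517 on day 7. It was 6.39-fold higher than in mock (log2 ratio 2.68, interval 2.67 to 2.68) and took 7.63% of all reads on day 5 against 1.32% in mock, the highest levels being those of days 4 and 5. Of 17 lipid-associated genes, a set described in macrophages that take up lipid, 8 were higher and 2 lower by 2-fold or more, with a median of 0.99 against 0.12 for all genes. Trem2, the lipid-sensing receptor (2.07), Fabp5, a fatty acid carrier (2.06), and Ctsd, the protease cathepsin D (1.48), were among those higher. The other fatty acid carrier, Fabp4, had 124 in mock and 31.2 on day 5 (-1.54), and the scavenger receptor Cd36 had 6832 in mock and 2806 on day 5 (-1.28), so the members parted. Day 5 was the highest library for 0 of the 17, against 18.0% of all expressed genes.

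Several genes of cholesterol export were higher and those of synthesis were not. Of 13 genes of export and the liver X receptors 6 were higher and 1 lower by 2-fold or more, and the number higher ranged from 3 to 6 over the 5 other scalings. The sterol transporter Abcg1 had 734 in mock, 1533, 773 and 2004 on days 1, 3 and 4, 2143 on day 5 and 424 on day 7, a ratio of 1.52. Its partner Abca1 was at 1.10, the receptor gene Nr1h3 at 1.10, the phospholipid transfer protein Pltp at 1.05 and the ubiquitin ligase gene Mylip at 1.32. Scd1, the fatty acid desaturase, went the other way, with 214 in mock, 40.6, 33.8 and 16.8 on days 1, 3 and 4, 20.8 on day 5 and 210.3 on day 7 (-2.59). Mock and day 7 were high in Scd1 and the 4 libraries between them were low. Of 19 genes of cholesterol synthesis and uptake 0 were higher and 1 lower by 2-fold or more, with a median of -0.36. These counts are near the shares of all expressed genes, 3.68% higher and 6.40% lower. Mvd, an enzyme of the mevalonate pathway, was at -0.99 and Insig1, which restrains synthesis, at -0.74. Slc27a1, a fatty acid transport protein, stood apart in the list of fatty acid uptake and oxidation, with 204 in mock, 1151, 1001 and 1369 on days 1, 3 and 4, 1696 on day 5 and 907 on day 7 (2.95). It was highest on day 5 and was the 1 gene of 20 in that list past 2-fold, against 10.1% of all expressed genes. The entry enzyme of mitochondrial oxidation, Cpt1a, was at 0.77.

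Lysosome genes were broadly a little higher. Of 50 genes 9 were higher and 0 lower by 2-fold or more, and the median of 0.62 compares with 0.12 for all genes. The number higher ranged from 5 to 9 over the 5 other scalings. Ctsd had 37171 in mock, 138599, 227422 and 243415 on days 1, 3 and 4, 103621 on day 5 and 36153 on day 7 (1.48). Its level was highest on days 3 and 4, with day 5 between them and mock. Others past 2-fold were the progranulin gene Grn (1.32), the proton pump subunit Atp6v0d2 (1.26) and the cathepsins Ctss (1.24), Ctsb (1.24) and Ctsh (1.18). Day 5 was the highest of the 6 libraries for 18 of the 50, against 18.0% of all expressed genes. TFEB and related factors are known to bind a short element in promoters of lysosome genes. The motif TCACGTG was searched on either strand in the 250 bases before the start. A gene with several RefSeq windows was counted if any of them held it. The motif occurred in 12 of 39 lysosome genes that had a window (30.8%), against 6.20% of expressed genes with a window. It occurred in 3.58% of all genes and 3.13% of all 32851 windows. Of the genes at least 2-fold higher on day 5 with a window, 12 of 266 held it (4.51%), and of those at least 2-fold lower 17 of 477 (3.56%). A variant, TCATGTG, was in 3 of 39 lysosome genes (7.69%) and 2.29% of expressed genes. The 3 windows printed are of members of the list with a match (GRCm38.p6, RefSeq, written on the gene's strand up to the last base before the start), for Ctsd (chr7:142387828-142388077, minus strand), Lgmn (chr12:102439093-102439342, minus strand) and Naglu (chr11:101069844-101070093, plus strand). Capitals mark the matches on either strand, and where copies overlap they run together. Lgmn has 2 windows, and the one printed was taken from those with a match. A match is a description of the letters, not a binding site or a cause.
Ctsd: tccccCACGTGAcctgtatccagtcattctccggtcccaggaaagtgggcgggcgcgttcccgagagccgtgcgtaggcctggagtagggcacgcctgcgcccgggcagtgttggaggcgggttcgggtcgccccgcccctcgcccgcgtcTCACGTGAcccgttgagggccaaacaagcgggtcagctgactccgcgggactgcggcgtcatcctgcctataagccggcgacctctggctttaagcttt
Lgmn: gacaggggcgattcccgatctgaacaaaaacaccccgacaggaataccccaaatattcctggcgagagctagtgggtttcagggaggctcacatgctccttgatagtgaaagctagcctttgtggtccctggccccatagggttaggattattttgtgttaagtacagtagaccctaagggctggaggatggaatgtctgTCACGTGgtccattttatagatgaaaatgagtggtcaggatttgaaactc
Naglu: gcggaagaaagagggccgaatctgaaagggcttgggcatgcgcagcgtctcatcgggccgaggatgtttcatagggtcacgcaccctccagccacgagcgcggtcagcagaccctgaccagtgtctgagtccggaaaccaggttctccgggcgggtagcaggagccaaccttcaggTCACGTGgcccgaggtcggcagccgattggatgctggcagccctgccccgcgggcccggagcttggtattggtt
Lgmn, which encodes the protease legumain, was at 0.96, and Naglu, which encodes a glucosaminidase of heparan sulfate digestion, at 0.85.

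Genes for the uptake of apoptotic cells did not move as a group. Of 23 members 6 were higher and 2 lower by 2-fold or more, with a median of 0.24 that turned to below 0 under 1 other scaling. Axl, a receptor tyrosine kinase that binds phosphatidylserine through the bridging protein Gas6, had 2229.9 in mock, 1951, 662 and 2309.6 on days 1, 3 and 4, 8464 on day 5 and 6337 on day 7. Its ratio to mock was 1.92 (interval 1.86 to 1.99), and days 5 and 7 were above the other 4 libraries. Its relative Mertk was at 1.27, the inhibitory phosphatidylserine receptor Cd300a at 1.58 and the integrin subunit Itgb5 at 1.40. Timd4, a phosphatidylserine receptor of resident macrophages, had 2704 in mock, 329, 103 and 142 on days 1, 3 and 4, 546 on day 5 and 1234 on day 7 (-2.27). Mock was the highest library for Timd4, and day 5 lay between the low days 3 and 4 and day 7. Complement genes parted as well, with 4 of 16 higher, 4 lower and a median of -0.30 that turned to above 0 among the 6000 highest genes. The 3 chains of C1q, the recognition part of the classical pathway, were all higher. C1qa had 36619 in mock, 13942, 28777 and 39282 on days 1, 3 and 4, 78285 on day 5 and 34104 on day 7 (1.10). C1qb was at 1.20 and C1qc at 1.16, and for all 3 day 5 was the highest library and day 1 the lowest. Over the 5 other scalings between 1 and 4 complement genes passed 2-fold upward, so the C1q calls depended on scaling. The receptor of the C3a fragment, C3ar1, was at 1.66. The decay-accelerating inhibitor Cd55, with 565 in mock and 74.9 on day 5, was at -2.65, and the C1 inhibitor Serping1 at -1.09, the receptor Vsig4 at -1.08 and Itgam were lower too. Of 10 Fc receptor genes 3 were higher, Trim21 (1.22), Fcgr1 (1.13) and Fcgr4 (1.02), and 2 were lower, the B cell genes Fcmr (-2.90) and Fcer2a (-2.95), and the number higher ranged from 0 to 3 over those scalings.

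Several genes of a list called microglia-type here were higher. Microglia are the macrophages of the brain, and a listed gene need not be particular to them. Of 15 listed genes 8 were higher and 0 lower by 2-fold or more, with a median of 1.01. The number higher ranged from 6 to 10 over the 5 other scalings, and the median was 0.78 at its lowest over all settings. Day 5 was the highest library for 7 of the 15, against 18.0% of all expressed genes. Ms4a7, a membrane protein of the MS4A family, had 4292 in mock, 17973, 19486 and 40439 on days 1, 3 and 4, 43214 on day 5 and 8671 on day 7. It was 10.0-fold higher than in mock (3.33, interval 3.29 to 3.38), at about the level of day 4. Tmem119, a membrane protein used as a microglia marker, had 636 in mock, 633, 2097 and 888 on days 1, 3 and 4, 2967 on day 5 and 1101 on day 7 (2.19). Day 5 was the highest library and day 3 the next. Olfml3, a secreted glycoprotein, was at 2.74, the lysophosphatidylserine receptor Gpr34 at 1.37, Cx3cr1 at 1.23 and the lectin Siglech at 1.01. Siglech fell short of 2-fold under some settings, to 0.78 at the lowest. In the MS4A family, 2 of 10 genes were higher, Ms4a7 and Ms4a14 (2.43), and 3 were lower, among them Ms4a1, which encodes CD20 of B cells (-3.17). Purine receptors parted, with 3 of 16 higher, led by the ATP-gated channel P2rx4 (1.69), and 3 lower, led by P2rx1 (-2.16).

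Markers of resident macrophages that passed 2-fold were all lower, while the signs of the whole list were mixed. Of 20, 0 were higher and 7 lower by 2-fold or more, against 3.68% and 6.40% of all expressed genes. The number lower ranged from 7 to 8 over the 5 other scalings. The median was -0.45, with 9 ratios above 0 and 11 below. Their summed level was 146436 in mock and 166604 on day 5, of which Sepp1, the selenium carrier, made up 51332 and 102273. Without Sepp1 the sum was lower on day 5 than in mock. Lyve1, the hyaluronan receptor of perivascular macrophages, had 6005 in mock, 729.8, 675 and 122 on days 1, 3 and 4, 621 on day 5 and 1779 on day 7 (-3.24). Mock was the highest library, day 4 the lowest, and day 5 stood near days 1 and 3. The chemokine Pf4 was at -1.98, the transglutaminase subunit F13a1 at -1.66 and the lectin receptor Cd209f at -1.40. Cd209f and Cd209g belong to a family of near-identical genes, so their values are uncertain. Sepp1 was at 0.99, and with TMM factors, another scaling, its ratio of 1.02 was past 2-fold. Among C-type lectins 7 of 21 were lower, with Clec4e, the glycolipid receptor Mincle, at -3.38, and 1 was higher, Clec4n, which encodes Dectin-2 (1.52).

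Several inhibitory receptors had their highest level on day 5. Of 20, 8 were higher and 3 lower by 2-fold or more, with a median of 0.57. Day 5 was the highest library for 8 of the 20, against 18.0% of all expressed genes. The number higher ranged from 5 to 8 over the 5 other scalings. Cd72, a lectin that inhibits receptor signalling and binds semaphorin 4D, had 2543 in mock, 3250.1, 1278 and 1324 on days 1, 3 and 4, 12691 on day 5 and 4339.6 on day 7. Its ratio to mock was 2.31 (interval 2.26 to 2.38), and it was 2.92-fold above the highest of the other 5 libraries. Cd22, a sialic acid receptor best known from B cells, had 272 in mock, 245, 128 and 578 on days 1, 3 and 4, 1577 on day 5 and 696 on day 7 (2.46). It was higher on day 5 than in mock while 8 of the 10 expressed B cell genes were lower by 2-fold or more, among them Cd79a with 2019.8 in mock and 152 on day 5. Siglec1, the sialoadhesin of macrophages, had 2684 in mock, 3948, 1104 and 933 on days 1, 3 and 4, 8029.6 on day 5 and 3719.7 on day 7 (1.57). For Cd72, Cd22 and Siglec1 day 5 stood alone above the rest. Cd300a was at 1.58 and Cd33 at 1.33, while the paired receptors Pilra (-2.59) and Pilrb1 (-1.37) and the eosinophil-associated Siglecf (-1.25) were lower.

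On day 5, 11 of the 10000 genes (0.110%) were at least 2-fold above every other library. Farthest above them was Cd72, then Enpp4, Tmem221, Zmynd15, Aoah, Cd22, Iigp1, Tmcc3, Trim47 and Siglec1. Enpp4, an ectoenzyme that splits nucleotides, had 274 in mock, 234, 107 and 286 on days 1, 3 and 4, 773 on day 5 and 270.3 on day 7. Aoah, which removes fatty acids from bacterial lipopolysaccharide and so inactivates it, had 454 in mock, 593, 209 and 675 on days 1, 3 and 4, 1566 on day 5 and 469.6 on day 7. Both were lowest on day 3 and stood between 2.29 and 2.60 times above the next highest library on day 5. Their ratios to mock were 1.44 and 1.75. Among the rest, Tmem221 had 83.1 in mock and 424 on day 5 (2.13), Zmynd15 246 in mock and 1199 on day 5 (2.20) and Tmcc3 817 in mock and 2623 on day 5 (1.66). Trim47, a ubiquitin ligase, was close to 2-fold over mock (1.04). The highest ratios to mock that have not been named yet were those of Fam26f (2.39), a member of a channel family, Kcnj10, an inward rectifier potassium channel (2.32), Samd4, an RNA-binding protein (2.24), and Ahnak2 (2.22). Kcnj10 rested on few reads, 29 in mock and 201 on day 5, which gives an interval of 2.35 to 3.53.

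**Figure D2:**
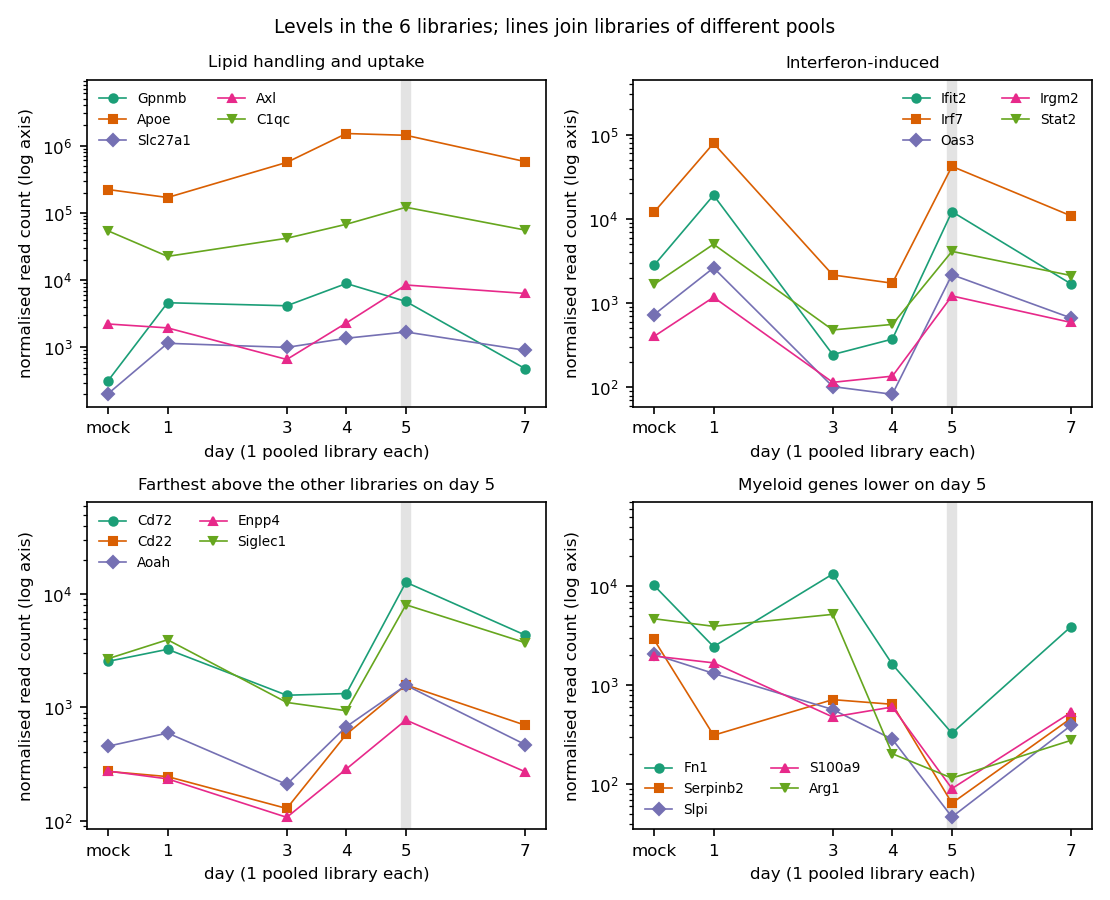
Normalised read counts (log axis) of 20 genes in the 6 libraries (horizontal, mock and day), 1 pooled library each, with day 5 shaded. Lines join libraries of different pools. The interferon-induced genes are high on days 1 and 5 and low on days 3 and 4, the genes at lower left peak on day 5, and Fn1, Serpinb2, Slpi and S100a9 are lowest on day 5.

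Interferon-induced antiviral genes were among the groups that were higher on day 5. Of 30, 19 passed 2-fold upward and 0 downward, against 3.68% and 6.40% of all expressed genes, with a median of 1.13. Over the 5 other scalings the number higher ranged from 11 to 19. Ifit2, which binds viral RNA and restrains its translation, had 2798 in mock, 19064, 245 and 374 on days 1, 3 and 4, 12171 on day 5 and 1687 on day 7. It was 4.33-fold higher on day 5 than in mock (2.11, interval 2.06 to 2.18), days 1 and 5 being high and days 3 and 4 below mock. Oas3, which makes the activator of RNase L, had 729 in mock, 2620.0, 102 and 82.8 on days 1, 3 and 4, 2172 on day 5 and 666 on day 7 (1.55). Its order over the libraries was the same as that of Ifit2 at the top, day 1 before day 5. The dynamin-like Mx2 was at 1.72, the OAS-like Oasl2 at 1.65, Ifi44 at 1.58, Bst2, the virus tether tetherin, at 1.40, and Ifit3 and Ifit3b, which are near-identical and so uncertain, at 1.53 and 1.54. The summed level of the list was 64637 in mock, 282634, 20191 and 20508 on days 1, 3 and 4, 145834 on day 5 and 40162 on day 7. Day 5 was the highest library for 4 of the 30, against 18.0% of all expressed genes.

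Among the genes of interferon signalling, 3 of 19 were higher and 0 lower. Irf7, the factor that amplifies interferon transcription, had 11969.8 in mock, 78765, 2159 and 1723 on days 1, 3 and 4, 41923 on day 5 and 10833 on day 7 (1.81, interval 1.78 to 1.84). Stat2 had 1665 in mock, 4994, 480.3 and 559 on days 1, 3 and 4, 4109.9 on day 5 and 2123 on day 7 (1.29). For both, day 1 was the highest library and day 5 the next. Irf8 (0.97), Irf9 (0.69) and the receptor chains Ifnar2 (0.75) and Ifngr2 (0.71) did not reach 2-fold. Sensors of nucleic acids were higher as well, with 8 of 17 past 2-fold, 0 lower and a median of 0.95. The chaperone of endosomal Toll-like receptors Unc93b1 had 16433 in mock, 16707, 17588 and 29582 on days 1, 3 and 4, 42758 on day 5 and 31258 on day 7 (1.38). Day 5 was its highest library. The endosomal RNA receptors Tlr7 (1.32), Tlr3 (1.24) and Tlr8 (1.22), the cytosolic sensors Ddx58, which encodes RIG-I (1.15), Ifih1, which encodes MDA5 (1.07), Dhx58 (1.09) and the DNA-binding Ifi204 (1.20) made up the rest. Between 3 and 8 of the 17 were past 2-fold over the 5 other scalings.

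The interferon-induced GTPases, which act on vacuoles that hold pathogens, did not move together. Of 14 expressed members 4 were higher and 1 lower by 2-fold or more, with a median of 0.39, and the number higher ranged from 1 to 4 over the 5 other scalings. Irgm2 had 402 in mock, 1174, 115 and 136 on days 1, 3 and 4, 1217 on day 5 and 589 on day 7 (1.56). Iigp1 had 479 in mock, 512, 44.4 and 29.8 on days 1, 3 and 4, 1151 on day 5 and 530.4 on day 7 (1.23), and day 5 was 2.13-fold above the next highest library. Irgm1 was at 1.10, Igtp at 0.95 and Ifi47 at 0.81. Tgtp2 was at 1.14 and its near-identical neighbour Tgtp1 at -1.22, and how the reads were shared between the pair is not given, so neither value is certain. The guanylate-binding protein with the largest ratio was Gbp9 (0.67). Gbp3, with 1298 in mock, 1325, 363 and 488 on days 1, 3 and 4, 1333 on day 5 and 818 on day 7, was level (0.04).

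The promoters of these groups can be set beside the ratios. Interferon-activated complexes with STAT2 and IRF9, and IRF proteins on their own, are known to bind elements built on GAAA repeats. A motif of GAAA, any 2 bases and GAAA again, searched on both strands in the 250 bases before the start (GRCm38.p6, RefSeq), occurred in 10 of 22 antiviral genes with a window (45.5%), in 9 of 10 GTPase genes (90.0%) and in 3 of 18 genes of interferon signalling (16.7%). It occurred in 3.49% of expressed genes, 3.46% of all genes and 2.98% of all 32851 windows of that length. Here too a gene was counted if any of its windows held the motif. Of the genes at least 2-fold higher on day 5, 27 of 266 with a window held it (10.2%), and of those at least 2-fold lower 18 of 477 (3.77%). The 5 windows that follow are those of the interferon genes with the largest ratios among those with a match, and Gbp3 is the GTPase with a match whose ratio was nearest 0. They lie at chr11:58214727-58214976, plus strand, for Irgm2, chr5:120777660-120777909, minus strand, for Oas3, chr19:34607707-34607956, plus strand, for Ifit3b, chr19:34583279-34583528, plus strand, for Ifit3, chr8:71537473-71537722, minus strand, for Bst2, and chr3:142559794-142560043, plus strand, for Gbp3. Each is written on the gene's strand up to the last base before the start, with matches on either strand in capitals and overlapping copies run together. Gbp3 has 2 windows, and the one printed was taken from those with a match.
Irgm2: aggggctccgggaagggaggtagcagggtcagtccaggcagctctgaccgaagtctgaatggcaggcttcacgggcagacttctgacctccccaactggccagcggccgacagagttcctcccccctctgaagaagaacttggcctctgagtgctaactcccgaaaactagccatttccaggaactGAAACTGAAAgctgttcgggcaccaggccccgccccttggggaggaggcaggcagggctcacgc
Oas3: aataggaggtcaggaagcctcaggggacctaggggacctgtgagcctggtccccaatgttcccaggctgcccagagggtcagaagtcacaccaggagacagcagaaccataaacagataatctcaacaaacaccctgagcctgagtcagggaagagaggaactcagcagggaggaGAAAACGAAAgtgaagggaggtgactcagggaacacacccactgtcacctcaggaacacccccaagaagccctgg
Ifit3b: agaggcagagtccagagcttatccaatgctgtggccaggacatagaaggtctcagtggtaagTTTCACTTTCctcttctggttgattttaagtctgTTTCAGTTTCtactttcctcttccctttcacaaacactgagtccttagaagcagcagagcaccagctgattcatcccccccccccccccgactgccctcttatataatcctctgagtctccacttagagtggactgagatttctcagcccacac
Ifit3: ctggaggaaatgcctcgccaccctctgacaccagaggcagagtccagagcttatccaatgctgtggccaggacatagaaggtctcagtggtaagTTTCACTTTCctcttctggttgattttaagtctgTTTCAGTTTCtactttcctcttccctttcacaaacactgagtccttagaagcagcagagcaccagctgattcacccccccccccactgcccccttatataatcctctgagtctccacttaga
Bst2: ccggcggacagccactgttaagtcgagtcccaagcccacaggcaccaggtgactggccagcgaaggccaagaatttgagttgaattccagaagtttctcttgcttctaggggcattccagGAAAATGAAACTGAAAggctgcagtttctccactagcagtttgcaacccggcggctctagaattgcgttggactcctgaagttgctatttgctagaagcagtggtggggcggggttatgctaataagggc
Gbp3: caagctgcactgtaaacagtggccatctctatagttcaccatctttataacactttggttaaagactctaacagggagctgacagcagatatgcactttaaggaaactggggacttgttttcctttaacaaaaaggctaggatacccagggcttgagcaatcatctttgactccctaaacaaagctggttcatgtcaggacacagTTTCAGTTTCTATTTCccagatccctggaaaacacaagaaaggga
Irgm2 and Oas3 each held 1 match, and Ifit3b, Ifit3, Bst2 and Gbp3 each held 2. In Ifit3 and Ifit3b the pair of matches sits in the same flanking letters. The windows of Ifit2, Irf7, Oasl2 and Ifi44 held no such letters, which says only that they are not in these windows, and Mx2 had no window in the table. Gbp3, with 2 copies, was level.

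MHC class I genes lay above 0 at the median and class II genes were level. Of 20 genes of class I and its peptide loading 4 were higher and 0 lower by 2-fold or more, with a median of 0.69. Day 5 was the highest library for 11 of the 20, against 18.0% of all expressed genes. The class I gene H2-K1 had 2199 in mock, 3134, 1136 and 1866 on days 1, 3 and 4, 4660.1 on day 5 and 2777 on day 7 (1.08). Tapbp, which encodes tapasin of the loading complex, had 9316 in mock, 15227, 5649 and 6508 on days 1, 3 and 4, 20499.8 on day 5 and 11265 on day 7 (1.14). Both were highest on day 5 with day 1 next. H2-D1 (0.98) and the peptide pump subunit Tap1 (0.91) stayed short of 2-fold, and the class I genes share sequence, so their values are uncertain. The number past 2-fold ranged from 0 to 5 over the 5 other scalings. Of 12 genes of class II and its helpers 1 was higher, Ctss, and 0 lower, and the median of -0.02 changed sign under 1 other setting. The chains H2-Aa (0.10), H2-Ab1 (0.12) and H2-Eb1 (-0.03), the chaperone Cd74 (0.13) and the transactivator Ciita (-0.07) lay between -0.07 and 0.13. Among costimulatory and checkpoint genes, 4 of 15 were higher and 3 lower. Havcr2, which encodes TIM-3, was at 1.44, Icosl at 1.25, Cd83 at 1.13 and the receptor of CD47, Sirpa, at 1.10, while the ligand Tnfsf9 was at -1.77 and Cd274, which encodes PD-L1, at -1.08.

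**Figure D3:**
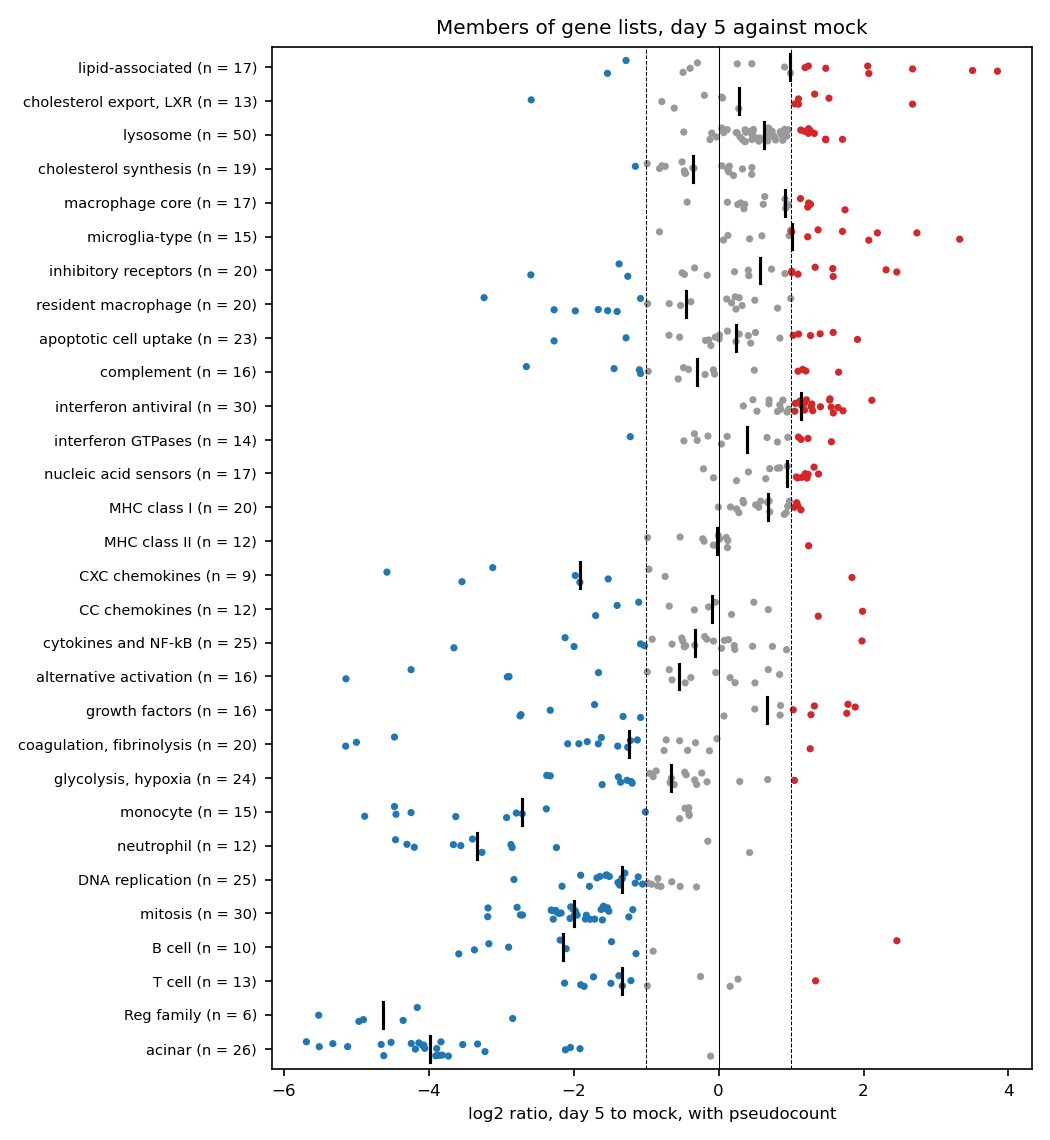
Log2 ratio of day 5 to mock (horizontal) for the expressed members of 30 gene lists (rows, with the number of members). Each point is a gene, red where at least 2-fold higher and blue where at least 2-fold lower, and the black bar is the list's median. The bars of interferon antiviral (1.13) and microglia-type genes (1.01) lie beyond the 2-fold line, and those of acinar (-3.98) and Reg genes (-4.63) lie farthest to the left. The interferon antiviral and microglia-type medians fell short of 2-fold under another scaling, to 0.89 and 0.78 at the lowest. The medians of apoptotic cell uptake, complement, MHC class II, CC chemokines and growth factors change sign under another setting.

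Monocyte genes were lower on day 5 than in mock. Of 15, 0 were higher and 10 lower by 2-fold or more, with a median of -2.71, and day 5 was the lowest library for 8, against 4.37% of all expressed genes. Fn1, which encodes fibronectin, had 10193 in mock, 2453, 13266 and 1625 on days 1, 3 and 4, 328 on day 5 and 3916 on day 7. It was 29.6-fold lower than in mock (-4.89, interval -5.13 to -4.80) and 4.76-fold below the lowest of the other 5. Chil3, a chitinase-like secreted protein, had 3672 in mock, 19799.6, 6937 and 1593 on days 1, 3 and 4, 177 on day 5 and 431 on day 7 (-4.25). Ly6c2, the marker of inflammatory monocytes, had 2671 in mock, 37117, 234 and 106 on days 1, 3 and 4, 336 on day 5 and 782 on day 7 (-2.93). Day 1 was the highest for Chil3 and Ly6c2, and Chil3 was lowest on day 5 while Ly6c2 was lowest on day 4. F10 (-4.47), which encodes clotting factor X, Hp (-4.45), which encodes haptoglobin, and Vcan (-3.63), a matrix proteoglycan, were lower too. Ly6c1 and Ly6c2 are near-identical, so their values are uncertain.

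Of the 10000 genes, 43 (0.430%) were at least 2-fold below every other library on day 5. Farthest below were Fn1, Slpi, S100a9, Clu, Reg2, Serpinb2, Reg3g, Reg3b, S100a8 and Cd24a. Slpi, a secreted inhibitor of leukocyte proteases, had 2047 in mock, 1317, 568 and 285 on days 1, 3 and 4, 46.8 on day 5 and 394 on day 7 (-5.00). Serpinb2, an inhibitor of plasminogen activators, had 2897 in mock, 313, 716 and 642 on days 1, 3 and 4, 64.5 on day 5 and 465 on day 7 (-5.15). S100a9, a calcium-binding alarmin abundant in neutrophils and monocytes, had 1972 in mock, 1682, 478 and 603 on days 1, 3 and 4, 90.5 on day 5 and 532 on day 7 (-4.20). All 3 were highest in mock. Clu, the extracellular chaperone clusterin, had 1849 in mock, 3537, 31129.6 and 2456 on days 1, 3 and 4, 412 on day 5 and 2771 on day 7 (-2.12), and its peak was on day 3. The glycoprotein Cd24a was at -2.41 and S100a8 at -3.56. Of 12 neutrophil genes 10 were lower and 0 higher, with a median of -3.33, the granule proteins Ngp at -4.30 and Lcn2 at -4.46 among them. Elane had 0 reads on day 5, and Camp, Mpo and Ly6g were not among the expressed genes.

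Several inflammatory genes were lower, while most members of their lists stayed within 2-fold. The aconitate decarboxylase Irg1, which makes itaconate, had 2867 in mock, 1302, 739.5 and 445 on days 1, 3 and 4, 153 on day 5 and 159 on day 7 (-4.08). Arg1, the arginine-splitting enzyme, had 4691 in mock, 3934, 5194 and 203 on days 1, 3 and 4, 115 on day 5 and 278 on day 7 (-5.14). Mock, day 1 and day 3 were high in Arg1 and the 3 later libraries low. Of 25 cytokine and NF-kB genes 1 was higher and 5 lower by 2-fold or more, with a median of -0.33. Il6 had 716 in mock, 96.0, 215 and 256 on days 1, 3 and 4, 40.6 on day 5 and 89.5 on day 7 (-3.65), so mock was the highest library. Lif, a cytokine of the same family, was at -2.12 and Osm at -1.08. The exception was Il12b, which encodes a subunit of interleukins 12 and 23, with 30.6 in mock, 30.8, 48.6 and 53.0 on days 1, 3 and 4, 173 on day 5 and 118 on day 7 (1.98). Its reads were few, 32 in mock and 166 on day 5, with an interval of 1.95 to 3.09. In the interleukin-1 group 4 of 22 were lower, the decoy receptor Il1r2 (-4.23), Il1a (-2.63), Il1b (-1.46) and Il18rap (-1.09), and 1 was higher, the interleukin-18 binding protein Il18bp (1.67). Of 15 itaconate and redox genes 2 were lower, Irg1 and the cystine transporter Slc7a11 (-3.00), and 0 higher.

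Most CXC chemokines were lower, and CC chemokines went both ways. Of 9 CXC genes 1 was higher and 6 were lower, with a median of -1.92. The neutrophil attractants Cxcl1 (-3.12), Cxcl2 (-1.92) and Cxcl3 (-4.58) and the B cell attractant Cxcl13 (-3.54) were lower. Cxcl16, a membrane-bound scavenger of oxidised lipoprotein that also attracts T cells, had 3327 in mock, 2859, 4509.7 and 7908 on days 1, 3 and 4, 11958 on day 5 and 5082 on day 7 (1.84). It was highest on day 5. Of 12 CC genes 2 were higher and 3 lower, with a median of -0.09 that changed sign under 1 other setting. The monocyte attractants Ccl8, with 473 in mock and 1925 on day 5 (1.99), and Ccl12, with 1855 in mock and 4838 on day 5 (1.37), were higher, and Ccl6 (-1.70), Ccl9 (-1.40) and Ccl5 (-1.10) were lower, while Ccl2 was at -0.34. Among 16 chemokine receptors 2 were higher, Cx3cr1 among them, and 5 were lower, led by the neutrophil receptor Cxcr2 (-2.85). Alternative activation genes had 5 of 16 lower and 0 higher, with a median of -0.55. They were Arg1, Chil3, the ribonuclease Ear2 (-2.92), the lipoxygenase Alox15 (-2.89) and the lectin Mgl2 (-1.66).

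Genes of clotting and its dissolution were mostly lower. Of 20, 1 was higher and 12 lower by 2-fold or more, with a median of -1.24. Day 5 was the lowest library for 9 of the 20, against 4.37% of all expressed genes. Besides Serpinb2, Slpi and F10, they included the factors F7 (-2.08) and F5 (-1.93), tissue factor F3 (-1.81) and the urokinase receptor Plaur (-1.62). The serum amyloid Saa3, an acute phase protein, was not in the list and had 15380.0 in mock, 8174, 3848 and 1289 on days 1, 3 and 4, 581 on day 5 and 3489.9 on day 7 (-4.68). Matrix proteases and their inhibitors had 6 of 19 lower and 3 higher. Mmp14, a membrane-bound collagenase, had 701 in mock, 1109, 1257 and 1448 on days 1, 3 and 4, 2660.2 on day 5 and 1371 on day 7 (1.90) and was highest on day 5. The neutrophil collagenase Mmp8 (-3.40), the gelatinase Mmp9 (-3.27) and the inhibitor Timp1 (-3.09) were lower. Eicosanoid genes had 6 of 21 lower and 3 higher. The inducible cyclooxygenase Ptgs2 was at -1.87, the prostaglandin E synthase Ptges at -2.74 and the leukotriene enzyme Alox5 at -1.88, while the prostaglandin D synthase Hpgds had 1548 in mock, 1162, 2129 and 5432 on days 1, 3 and 4, 4252 on day 5 and 1880.1 on day 7 (1.45), with days 4 and 5 highest.

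Growth factor genes moved in both directions, 6 of 16 higher and 6 lower, with a median of 0.67 and a mean on the other side of 0, at -0.04. Pdgfc, a platelet-derived growth factor that acts on fibroblasts, had 93.6 in mock, 48.0, 96.5 and 277 on days 1, 3 and 4, 366 on day 5 and 215 on day 7 (1.79). Gdf3 was at 1.89, Gdf15, a stress-induced member of the same superfamily, at 1.77, and Grn at 1.32. Vegfa, the main growth factor of blood vessels, had 743 in mock, 234, 871 and 572 on days 1, 3 and 4, 134 on day 5 and 183 on day 7 (-2.32). The epidermal growth factor receptor ligands Areg (-2.74) and Hbegf (-1.71) were lower, as was Nrg1 (-2.73), which had 2 reads on day 5 and the widest interval of all named genes, -8.83 to -3.89. In the transforming growth factor beta pathway the receptor Tgfbr1 was the 1 gene of 15 past 2-fold, against 10.1% of all expressed genes. Tgfbr1 had 649 in mock, 620.2, 1055 and 1602 on days 1, 3 and 4, 2518 on day 5 and 2049.9 on day 7 (1.93). The receptor Tgfbr2 was at 0.94. Sema4d, the semaphorin that binds CD72, was the 1 of 11 semaphorin and plexin genes past 2-fold, against the same 10.1%. Sema4d had 1295 in mock, 2435, 762 and 1523 on days 1, 3 and 4, 4153 on day 5 and 2524 on day 7 (1.67). Like Cd72 it was highest on day 5.

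Transcription factors of the myeloid lineage had 3 of 39 higher, between 1 and 5 over the 5 other scalings, and 7 lower. Of all expressed genes 3.68% were higher and 6.40% lower. Egr2, a factor of alternatively activated macrophages, had 2308 in mock, 726, 1080.4 and 4570.0 on days 1, 3 and 4, 5849.8 on day 5 and 1851 on day 7 (1.33). Cebpa, a factor of myeloid differentiation, was at 1.16. Bhlhe40, which represses interleukin-10, had 3906 in mock, 1533, 2173 and 1595 on days 1, 3 and 4, 728 on day 5 and 2345 on day 7 (-2.40). Day 5 was the highest library for Egr2 and the lowest for Bhlhe40. The orphan receptors Nr4a2 (-2.01) and Nr4a3 (-1.48) and the inhibitors of differentiation Id1 (-1.25) and Id3 (-1.65) were lower. Of 22 immediate early and heat shock genes, which tissue digestion can induce, 1 was higher, Jun (1.09), and 2 were lower, Fosl1 (-3.64) and Fosl2 (-1.14). These counts are near the shares of all expressed genes. Jun fell short of 2-fold under some settings, to 0.84 at the lowest, and Fos was at 0.71.

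Some glycolysis and hypoxia genes were lower. Of 24, 1 was higher and 8 lower by 2-fold or more, with a median of -0.66. The lactate exporter Slc16a3 was at -2.37, the glucose transporter Slc2a1 at -1.21 and the enzymes Eno1 (-1.39), Gapdh (-1.35), Pkm (-1.27) and Pgk1 (-1.19) were lower as well. Because pseudogene copies of Gapdh, Eno1 and Pgk1 are common, their values depend on how shared reads were counted. The 31 ribosomal protein genes had 0 past 2-fold in either direction and a median of -0.38, and 10 mRNAs of the mitochondrial genome had 1 lower, between 1 and 5 over the 5 other scalings, and a median of -0.88. Genes of the unfolded protein response had 1 of 21 higher, Ddit3 (1.16), and a median of -0.20. Fewer than 4 members were past 2-fold in each direction in the lists of iron handling, with Steap4 (-2.23) and Slc11a2 (1.26), of amino acid transport, with Slc15a4 (1.26), of integrins, with Itga9 (1.08), of tetraspanins, with Cd81 (-1.42) and Cd63 (1.19), and of kinase feedback, with Dusp6 (1.01) and Dusp10 (-1.62).

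Cell division genes were lower without exception in the mitosis list. All 30 mitosis genes were below mock by 2-fold or more, with a median of -2.00, and the count was 30 under each of the 5 other scalings. Ccnb2, a cyclin of mitosis, had 836 in mock, 62.8, 2495 and 149 on days 1, 3 and 4, 75.9 on day 5 and 271 on day 7 (-3.19). Birc5, which encodes survivin of the chromosomal passenger complex, had 852 in mock, 61.5, 3281 and 146 on days 1, 3 and 4, 78.0 on day 5 and 237 on day 7 (-3.18). For both genes day 3 was the highest library, mock the next, and days 1, 4 and 5 were low. Of 25 DNA replication genes 17 were lower and 0 higher, with a median of -1.33. Tk1, the thymidine kinase of S phase, had 794 in mock, 88.6, 2564 and 129 on days 1, 3 and 4, 96.7 on day 5 and 219.6 on day 7 (-2.83). The summed mitosis level was 12858 in mock and 2715 on day 5, against 40133 on day 3.

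Acinar and Reg genes made up 9 of the 15 lowest genes. Of 26 acinar genes 25 were lower, with a median of -3.98. Pnlip, the pancreatic lipase, had 119710.1 in mock, 7811, 5077 and 1854 on days 1, 3 and 4, 2970.1 on day 5 and 111895 on day 7 (-5.32). Gp2, a protein of zymogen granule membranes, had 13946 in mock, 1316, 2355 and 465 on days 1, 3 and 4, 253 on day 5 and 14330.5 on day 7 (-5.69). Mock and day 7 were alike high in both and the 4 libraries between them low. Sycn (-5.51), Ctrc (-5.12), Prss2 (-4.66) and Cpa1 (-4.62) were also among the 15 lowest genes. All 6 expressed Reg genes, which encode secreted lectins that acinar cells make after injury, were lower and at their lowest on day 5, with a median of -4.63. Reg3g was at -5.52, Reg2 at -4.96 and Reg3b at -4.90. Trypsinogens and Reg genes have near-identical copies, so single values are uncertain. Haemoglobin Hbb-bs had 886 in mock, 66.5, 1915 and 155 on days 1, 3 and 4, 13.5 on day 5 and 585 on day 7 (-4.85), and the 3 expressed erythroid genes were all lower and lowest on day 5.

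**Figure D4:**
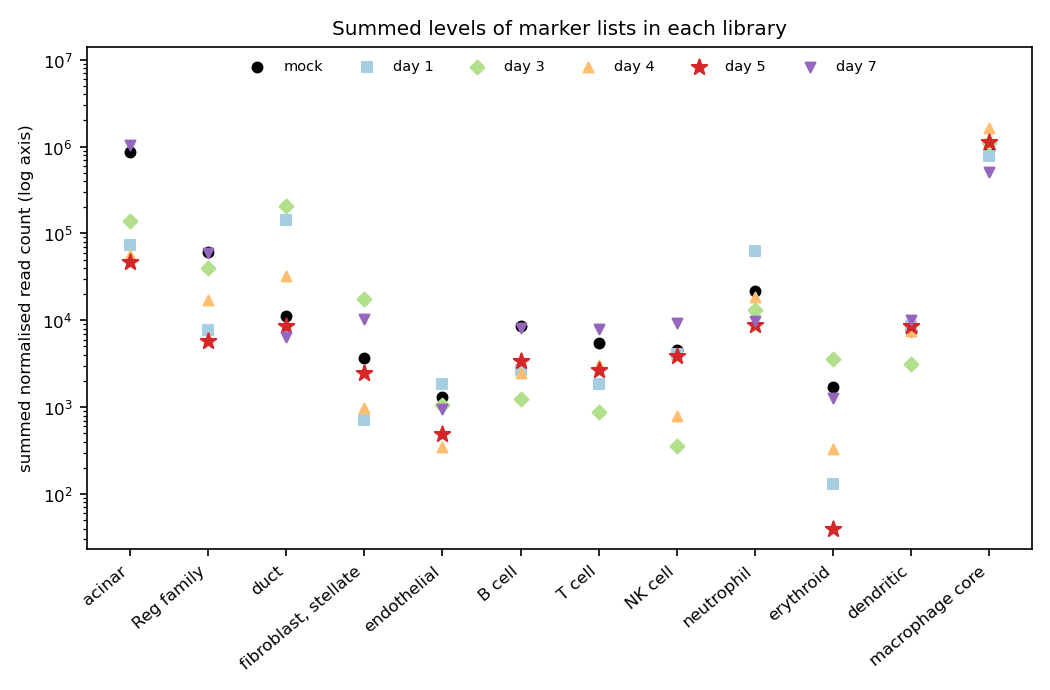
Summed normalised read count (vertical, log axis) of 11 marker lists of other cells and of core macrophage genes (horizontal). Each of the 6 libraries is 1 point, and sums cover all listed genes found in the data, expressed or not. The acinar sum was 861029.9 in mock and 46659 on day 5 (star), whereas the core macrophage sum was 926329.8 and 1139238.

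Other cell types were less uniform. Of 10 B cell genes 8 were lower and 1 higher, Cd22. Of 13 T cell genes 8 were lower, with the receptor subunit Cd3e at -1.73 and Trac at -1.86, and 1 was higher, Cd4 (1.34), with 172 in mock, 60.3, 33.8 and 208 on days 1, 3 and 4, 462 on day 5 and 378 on day 7. Cd4 had its highest level on day 5. Of 8 NK cell genes 3 were lower, and Klrk1, which encodes the receptor NKG2D, was higher with 880.5 in mock, 2886, 99.3 and 216 on days 1, 3 and 4, 1982 on day 5 and 1476 on day 7 (1.15), in an order over the libraries that put days 1 and 5 on top. Fibroblast and stellate genes had 1 of 10 lower, Acta2 (-2.21), and 0 higher, with a median of -0.37, so Col1a1 (-0.39) and Col3a1 (-0.35) were near level. Duct genes had 4 of 6 lower, while Spp1, which macrophages also make, was at -0.29. Endothelial genes had 3 of 4 lower, Plvap (-2.74), Flt1 (-1.29) and Pecam1 (-1.13). The fourth, the growth factor receptor gene Kdr, went the other way without reaching 2-fold, with 91.7 in mock and 197 on day 5 (0.97), and reached it with quantile normalization (1.07). Dendritic cell genes had 2 of 11 higher, Bst2 and Siglech, which are also interferon-induced and microglia-type genes here, and 2 lower, Ly6d (-2.81) and Ccr7 (-1.89). Among 7 genes of peritoneal macrophages 6 were lower, with a median of -2.89: Serpinb2, Arg1, the lubricin gene Prg4 (-3.35), Alox15, Selp (-2.89) and Icam2 (-1.27). Cd93 was higher (1.03), and Gata6, the factor that defines peritoneal macrophages, was not among the expressed genes. All 3 expressed eosinophil and mast cell genes were lower, while Prg3 and Mcpt4 had 0 reads on day 5. The 1 expressed islet gene, Gcg, which encodes glucagon, was at -2.61.

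**Figure D5:**
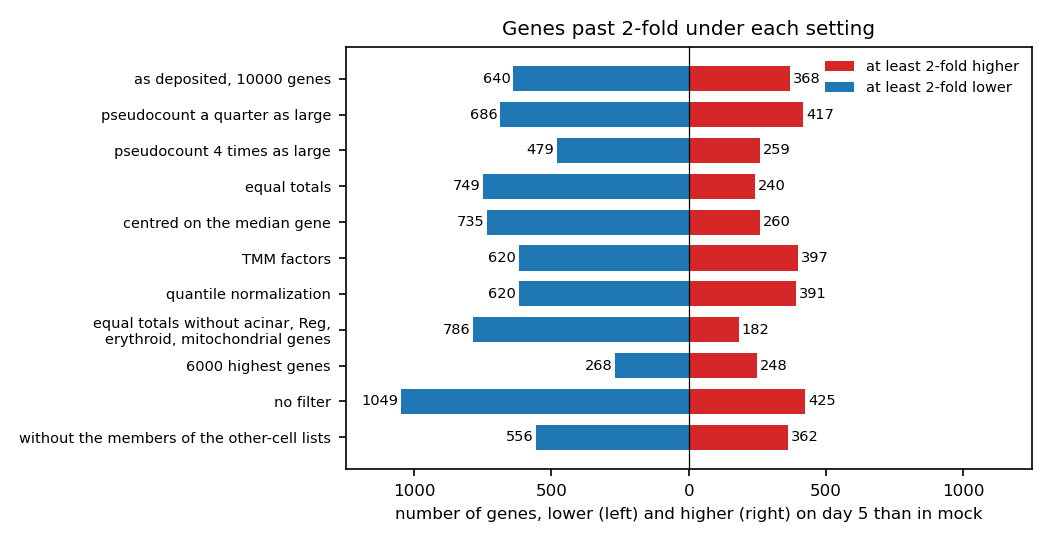
Number of genes at least 2-fold lower (left) and higher (right) on day 5 than in mock under each setting (rows). As deposited 368 genes were higher and 640 lower, and over all settings the number higher ranged from 182 to 425 and the number lower from 268 to 1049.

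The whole reads behind the values allowed 1 test, of the 5 caerulein libraries against mock, which treats libraries of different days as replicates and does not isolate day 5. Mock is 1 library and differences between days enter the residual spread, so a lack of calls does not show that no gene differed. With edgeR's quasi-likelihood test 0 of 14106 genes (0%) were called higher and 0 (0%) lower at an adjusted p under 0.05, and 24 were higher and 78 lower at an unadjusted p under 0.05. Libraries held between 14853084 and 25726455 reads, 17598031 in mock and 17905449 on day 5. A level of 3 reads corresponded to 2.87 normalised reads in mock and 3.12 on day 5. At this depth the counting intervals of named genes reached 0.14 to either side on the log2 scale at the median, so counting error was small for most, and the variation between pools of mice is not measured.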

How the data were processed

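RNA was sequenced from sorted pancreatic macrophages, 1 pooled library a group, with an Illumina RNA library kit per the labels' protocols. The submitters' processing notes name Bowtie 0.12.2 and the build mm8, without a role. For the gene counter, annotation, use of strand and treatment of shared reads, nothing is stated in the sources used here, which leaves overlapping and near-identical genes uncertain. The values deposited by the authors are a normalised signal for 31617 genes. Every column holds whole multiples of 1 step, and 100% of values gave whole reads to within 0.01, so the deposited values are read counts divided by 1 factor per library. Of the identifiers, 31431 (99.4%) were in a table of mouse gene names. The lowest mean among the 10000 expressed genes was 74.1.

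From the deposited values a log2 ratio with the pseudocount was computed as the report states, with Python 3.11.15, numpy 2.4.6, pandas 2.3.3 and scipy 1.17.1, and plots were drawn with matplotlib 3.10.9. The count test used edgeR 4.0.16 under R 4.3.3, with a minimum of 60 reads a gene summed over libraries. Calculations were tested on simulated data. Without molecular identifiers reads are not counts of independent molecules, and intervals and floors cover counting error only. The group of the mock sample comes from its title, and those of the caerulein samples come from their treatment labels. The comparison and the gene lists were chosen with earlier results of these data known, so no list is independent evidence. Named genes were the 15 highest and 15 lowest ratios, the 10 farthest above and 10 farthest below the other libraries, all members of lists with at most 12 expressed members and otherwise the 8 with the largest ratios, the sort genes and the genes of the printed promoters. The ratio and library parts of that rule skipped predicted genes, small RNAs, pseudogenes and immune receptor segments. The text describes only some of the named genes. Alternatives changed the pseudocount, the scaling, the gene filter and the summary of a list. No coordinates of mm8 are given. The promoter windows are of GRCm38.p6, from 27025 genes.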

Additional observations from a re-analysis of the deposited data

How the results depend on the processing

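With equal library totals 240 genes were at least 2-fold higher on day 5 than in mock, in place of 368, and with equal totals after acinar, Reg, erythroid and mitochondrial genes had been left out 182 were. The number lower was 268 among the 6000 highest genes and 1049 with no filter on low values, in place of 640, since fewer or more low genes were counted. Under the other settings tried, both counts stayed within 1.5 times those as deposited. A smaller pseudocount gave 417 and 686, a larger 259 and 479, and TMM factors 397 and 620. Of the medians of 67 gene lists, 20 changed sign under some setting. They include 5 that the report prints: MHC class II at 0.0114 with TMM factors, apoptotic cell uptake at -0.0028 with equal totals after the same genes had been left out, complement at 0.0383 among the 6000 highest genes, CC chemokines at 0.0703 with quantile normalization and growth factors at -0.0353 as a mean over members. The other 15 are the sort genes and the lists of fatty acid uptake and oxidation, Fc receptors, lectins, transcription factors, interleukin 1 and inflammasome, matrix proteases, TGF-beta, semaphorins and plexins, integrins, amino acid transporters, iron, immediate early and heat shock, MAP kinase feedback and dendritic cells. The cause was not tested. Of the 302 named genes past 2-fold, 67 fell short of it under some setting and 0 changed sign. No paired analysis was possible because each group has 1 library. The design limits all of this to differences between 2 pooled libraries.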
